A study of Homo sapiens with 6 samples.

Results

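The exons described here are known exons that were sometimes left out of the mRNA by a junction that the annotation used by the authors did not list. Each is an exon of 31 to 500 nt between 2 annotated splice junctions on the same strand, whose outer ends are also the ends of an unannotated junction that skips the exon. All 3 junctions needed at least 10 uniquely mapped reads pooled over the 6 libraries. The mean of both inclusion junctions plus the skipping junction had to reach 20 reads in every library. This rule gave 5582 combinations of an exon and a skipping junction, called members below, out of 19137 cassette combinations up to 500 nt that met the same read minimums. They covered 5431 different exons and 5103 different skipping junctions. The skipping share is the skipping reads divided by the mean inclusion reads plus the skipping reads, in percent. Read counts chose the members, so the size of their shares is a description. The rule did not use the difference between the genotypes directly, but the pooled minimum bears on it, as described with the calls.

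In exon skipping the 5′ splice site upstream of an exon is joined to the 3′ splice site downstream of it, and both splice sites of the exon itself stay unused. U2AF1 is the small subunit of the U2AF complex, which recognises the AG at the 3′ end of an intron early in spliceosome assembly. A member therefore holds 2 sites read by U2AF1, the acceptor of the exon and the acceptor of the next exon. S34F replaces a serine in a zinc finger of U2AF1; it recurs in myeloid neoplasms and is known to alter which base is preferred next to the AG, and with it the inclusion of many cassette exons. The libraries were made from poly(A)+ RNA of K562, a human chronic myeloid leukaemia cell line. The control group is 3 libraries of K562 carrying a knock-in of wild-type U2AF1, and the mutant group 3 libraries of K562 labelled U2AF1 S34F. The labels do not say whether the libraries of a group were separate clones or cultures, so p-values measure only the spread between these libraries. Positions are given 1-based as in the files, on hg19, the build named in the submitters' processing notes. Gene names, splice site sequences, K562 markers and the U2AF1 transcripts themselves were not analysed here, because no sequence or annotation of that build was used, and exons are named by position.

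The libraries held from 18074706 (S34F replicate 2) to 39279169 (S34F replicate 3) uniquely mapped spliced reads. Unannotated junctions of every kind took 1.25%, 1.03% and 1.15% of these reads in wild-type replicates 1, 2 and 3, and 1.30%, 1.24% and 1.38% in the S34F replicates. The skipping junctions of the members were 15.6% of all 32676 unannotated junctions with 10 or more pooled reads, and carried 9.94% of the reads on unannotated junctions. Wild-type replicate 1 stood apart from the other wild-type libraries. Over the 5582 members, its log2 odds of skipping correlated with wild-type replicates 2 and 3 at r = 0.76 and 0.72, and with the S34F replicates at 0.76, 0.77 and 0.79. Wild-type replicates 2 and 3 correlated with each other at 0.78 and with the S34F libraries at 0.65 to 0.71, and the S34F libraries among themselves at 0.82 to 0.85. These are descriptions across exons that share libraries and depth. Calls that change without wild-type replicate 1 are given beside the exons and counts described.

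Skipping outside the annotation was mostly a minor form. The mean share over the 6 libraries had a median of 2.33% and quartiles of 0.98% and 4.73%. It was under 1% in 1430 members, from 1% to under 5% in 2873, from 5% to under 20% in 1149, from 20% to under 50% in 103, and 50% or more in 27. Of the members, 2756 had a skipping read in all 6 libraries, 1668 in 5, 899 in 4 and 259 in 3 or fewer. The median member had 20 skipping reads in all. For comparison, the 8327 combinations of the same size whose skipping junction was annotated had a median share of 15.5%, and 3000 of them were at 50% or more.

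**Figure D1:**
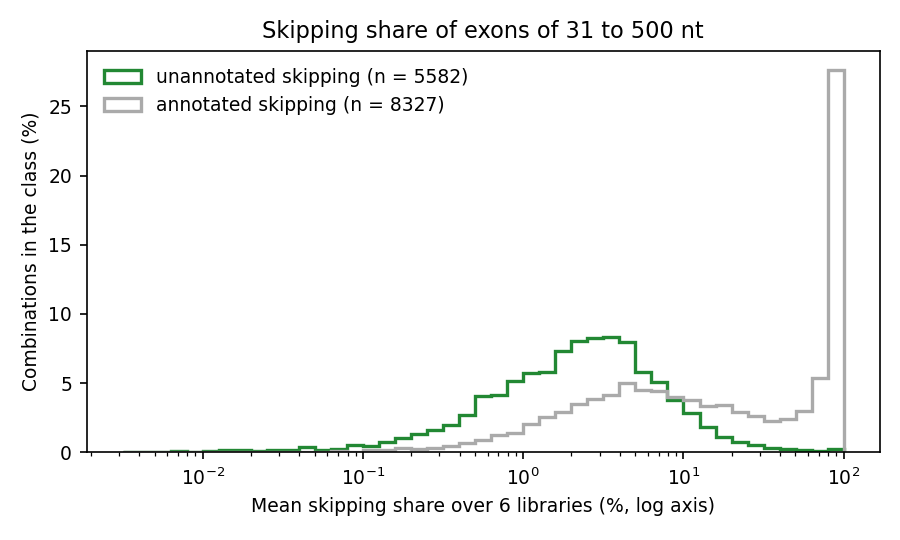
Distribution of the mean skipping share over 6 libraries (percent, log axis) for exons of 31 to 500 nt, as a percentage of each class. The 5582 combinations with an unannotated skipping junction peak at a few percent (median 2.33%), while the 8327 with an annotated one reach across the whole range and pile up near full skipping.

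The read minimums cut through a dense part of the data. In all, 443 members had exactly 10 skipping reads, with shares from 0.00679% to 6.55%, and 564 combinations with 9 reads were left out, with shares from 0.0112% to 5.09%. For the depth minimum, 62 members had from 20 to under 21 reads in their lowest library, with a median share of 6.63%, and 60 combinations with 19 to under 20 were left out, with a median of 8.10%. The length limits touched few exons: 5 members were 31 nt long and 18 combinations of 30 nt lay outside, 2 members were 500 nt long and 2 combinations of 501 nt lay outside.

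The 8 exons with the highest mean share were annotated exons that were rarely included between these flanking splice sites. A 59 nt exon at chr5:53603718-53603776 (minus strand) was skipped in 90.4%, 93.6% and 97.7% of wild-type reads and 96.8%, 94.5% and 94.9% of S34F reads. A 57 nt exon at chr5:137499276-137499332 (minus strand) was skipped in 93.0%, 94.6% and 95.7% of wild-type reads and 97.0%, 88.5% and 91.5% of S34F reads. A 77 nt exon at chr3:9876111-9876187 (plus strand) had 88.9%, 90.0% and 95.8% in wild type against 90.6%, 98.3% and 92.0% in S34F. In each of these exons the 2 genotypes overlapped. The other 5 were chr5:141318421-141318469, chr12:74587854-74587933, chr20:29612962-29613061, chr20:29624043-29624092 and chr1:10386169-10386417, with mean shares from 84.0% to 93.2% in either genotype. The chromosome 12 exon, 80 nt long, was the only one of the 8 whose groups did not overlap: 92.3%, 94.2% and 92.9% in wild type against 86.8%, 79.4% and 89.7% in S34F. That difference did not pass the test (log2 odds -1.05, SE 0.59, edgeR adjusted p = 0.287). Inclusion of these 8 exons rested on few reads, from 0.5 to 17 mean inclusion reads per library.

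The members had a common structure. The skipping junction had the GT-AG motif in all 5582, although GC-AG and AT-AC junctions were allowed. The annotated skipping junctions of the comparison set held 47 of another type. Of the members, 37 had a GC-AG or AT-AC inclusion junction, in each case the junction downstream of the exon. The upstream inclusion junction shares its 5′ splice site with the skipping junction, so the GT of the latter fixed this side. The median exon was 123 nt long (quartiles 90 and 167), against 111 nt for annotated skipping. A length that is a multiple of 3, which keeps the reading frame when the exon is skipped in coding sequence, was found in 2187 members (39.2%), against 41.6% of annotated skipping. The median intron was 1624 nt long upstream and 1488.5 nt downstream, against 1776 and 1726 nt for annotated skipping. The skipping junctions spanned from 235 to 241576 nt, and 35 members had one over 100000 nt.

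Members were not all independent of each other. In all, 145 exons occurred with more than 1 skipping junction, and 421 skipping junctions skipped more than 1 form of an exon, up to 5. Linked by shared junctions, the members fell into 4603 groups, 3840 of them with a single member and the largest with 8. Only 272 of the 5431 exons (5.01%) also had an annotated skipping junction among the combinations tested. The reads supported long alignments: the largest overhang on the skipping junction, which reaches at most 50 nt in these tables, had a median of 49 nt. In 4756 members the skipping junction had no multi-mapped read. Upstream and downstream inclusion reads lay within 1.5-fold of each other in 3765 members and differed by over 2-fold in 1178.

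Over all members together the skipping share was higher in S34F. Summed over the members, with the reads of a shared skipping junction counted for each exon, it was 0.932%, 0.761% and 0.786% in wild-type replicates 1, 2 and 3 and 0.99%, 1.07% and 1.27% in the S34F replicates. The group means were 0.827% ± 0.092 and 1.11% ± 0.14 (SD, n = 3 each), and no S34F library lay below a wild-type one. Wild-type replicate 1 was closest to S34F, and the deepest library, S34F replicate 3, was the highest. Without wild-type replicate 1 the difference went from 0.283 to 0.336 percentage points, and without S34F replicate 3 to 0.203. The median member gave 1.95%, 1.28% and 1.20% in wild type against 1.88%, 2.44% and 2.55% in S34F, so that on this measure wild-type replicate 1 lay above S34F replicate 1. For annotated skipping of exons with a length that is a multiple of 3, the summed share was 36.6% ± 0.59 in wild type and 36.5% ± 0.63 in S34F. For the other annotated exons it was 36.8% ± 0.31 and 37.3% ± 0.70. The median annotated combination was also higher in S34F by group mean. It was 15.9% ± 0.55 in wild type and 17.3% ± 1.9 in S34F for lengths that are a multiple of 3. For the other lengths it was 14.1% ± 1.0 and 15.6% ± 1.7. In both sets the libraries of the groups overlapped on this measure. The share of all reads on unannotated junctions was 1.14% ± 0.11 in wild type and 1.31% ± 0.072 in the S34F libraries, and its part in the result was not tested. The pooled minimum of 10 reads bears on these sums too, because a member could pass through the group in which skipping was high. Its part in the difference was not tested. Over the members with 10 or more skipping reads in each group, the summed share was 1.26% in wild type and 1.65% in S34F. No p-value is given for these sums, which are scores over chosen members.

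**Figure D2:**
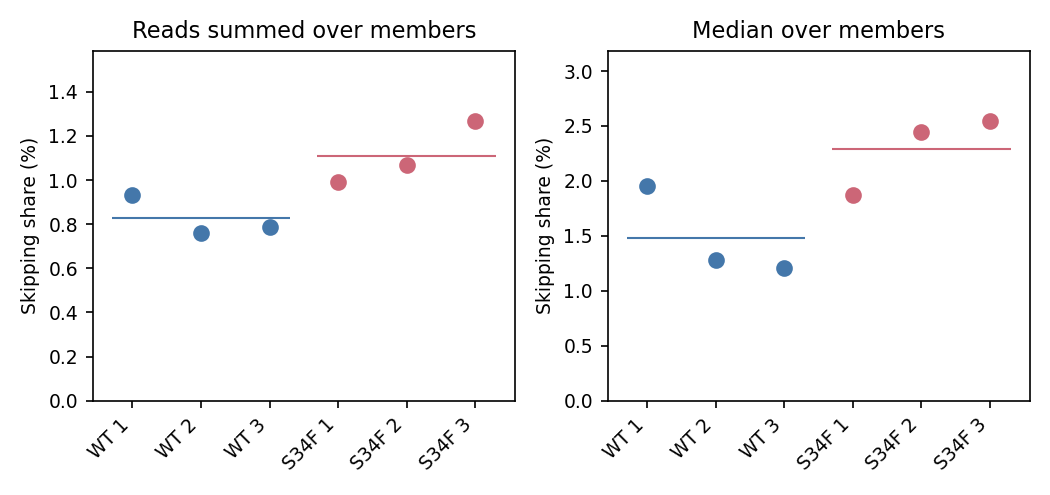
Skipping share (percent) of the members in each library, as reads summed over all members on the left and as the median over members on the right; points are libraries and lines are group means. In the sums all S34F libraries lie above all wild-type libraries (lowest S34F 0.99%, highest wild type 0.932%), while in the medians wild-type replicate 1 at 1.95% lies above S34F replicate 1 at 1.88%.

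Each member was then compared between the genotypes with edgeR's quasi-likelihood test, fitted on all 19137 cassette combinations and adjusted over all of them by the Benjamini-Hochberg method. A member was called at an adjusted p under 0.05. In all, 319 members (5.71%) were called, against a background of 5.76% of all combinations tested. Skipping rose in S34F in 288 members (5.16%; background 3.96%) and fell in 31 (0.555%; background 1.8%). With a further minimum of 10 percentage points between the group means, 79 members were called (1.42%; background 2.72%), 73 rises (1.31%; background 1.7%) and 6 falls (0.107%; background 1.02%). An unadjusted p under 0.05 was reached by 1323 members (23.7%; background 23.9%). The groups did not overlap in 1086 members with S34F higher (19.5%; background 16.7%) and in 348 with S34F lower (6.23%; background 12.7%). Without the minimum difference the total called was near the background, rises were above theirs and falls below. With it the total, the rises and the falls were all below theirs.

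The pooled read minimum bears on that split, because S34F replicate 3 is the deepest library and a member could pass through the group in which skipping was high. In all, 1736 members had 10 or more skipping reads in the S34F libraries alone and fewer in wild type, and 194 of the 288 rises were among them. Another 462 members had 10 or more in wild type alone, with 16 of the 31 falls. Of the 1805 members with 10 or more in each group, 94 rose (5.21%) and 15 fell (0.831%). The total called was 6.04%, against 5.91% of all combinations so chosen, a background that was not split by direction. In 1579 members neither group reached 10 by itself, and edgeR called 0 of them, with 58 at an unadjusted p under 0.05. The median log2 odds of S34F against wild type was 0.42 over all members and 0.20 over those with 10 reads in each group. It was -0.01 over the annotated skipping combinations.

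The counts depended on single libraries. Without S34F replicate 3, 2 members were called (0.0358%, against 0.0888% of all combinations), with 950 members at an unadjusted p under 0.05. The count was 38 without S34F replicate 2 (0.681% against 0.899%) and 99 without S34F replicate 1 (1.77% against 1.44%). It was 68 without wild-type replicate 2 (1.22% against 1.45%) and 181 without wild-type replicate 3 (3.24% against 3.42%). Without wild-type replicate 1 it was 773 (13.8% against 12.8%), of which 681 rose. DESeq2 called 37 members (0.663% against 0.726%), all rises and all among the 319. With limma on log2 odds 0 of the 19137 combinations were called, with 1374 members at an unadjusted p under 0.05. Of the 22 called members described below, 22 stayed called without wild-type replicate 1, 6 without wild-type replicate 2, 14 without wild-type replicate 3, and 7, 5 and 2 without S34F replicates 1, 2 and 3. None of the 22 changed direction in any of these fits, which their choice as called members without overlap made unlikely.

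**Figure D3:**
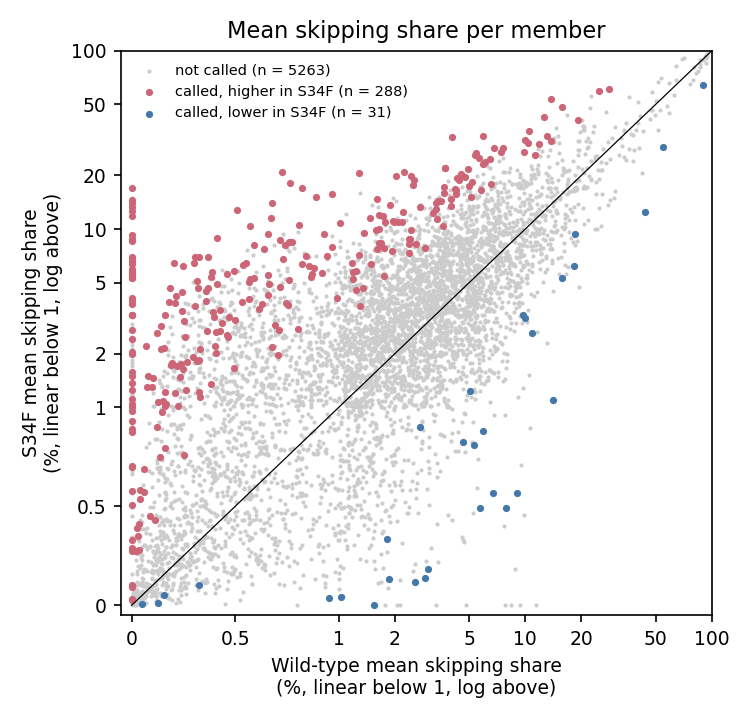
Mean skipping share (percent) of each member in wild type (horizontal) and S34F (vertical), 3 libraries each, with both axes linear below 1% and logarithmic above; the line marks equal shares. The 288 members called higher in S34F lie above the line, many of them near 0 in wild type, and the 31 called lower lie below it.

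Only 2 members were called in the full fit and in each of the 6 fits without 1 library, and both rose; they are singled out after their values were seen. The first is an 81 nt exon at chrX:154012303-154012383, minus strand, skipped by a junction from 154011783 to 154013325. Its skipping share was 1.64%, 1.85% and 4.07% in wild type against 25%, 13.9% and 17.3% in S34F, over at least 466.5 reads in every library. The lowest S34F library was well above the highest wild-type library, and the log2 odds rose by 3.21 (SE 0.42, edgeR adjusted p = 0.00182). The length of 81 nt is a multiple of 3. The second is a 103 nt exon at chr7:56129440-56129542, plus strand, skipped by a junction from 56128634 to 56130375. Its share was 1.84%, 0.684% and 1.58% in wild type against 9.55%, 10.2% and 8.83% in S34F, over at least 548.5 reads per library. The groups were far apart and tight (1.37% ± 0.61 against 9.53% ± 0.69, n = 3 each), with a rise in log2 odds of 2.97 (SE 0.40, edgeR adjusted p = 0.00182). Skipping of this exon does not keep a multiple of 3. Without S34F replicate 3 both had an adjusted p of 0.049, and with limma on log2 odds both missed the threshold at 0.0552. Of 20 alternatives, the chromosome X exon stayed called in 19 and the chromosome 7 exon in 18.

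Among the 10 called rises with the largest difference and groups that did not overlap, skipping became the main form in 3. An 83 nt exon at chr4:83816845-83816927 (minus strand) was skipped in 24.5%, 10.6% and 6.25% of wild-type reads and 51.3%, 54.4% and 54.5% of S34F reads. The S34F libraries lay within 3.24 percentage points of each other, while wild-type replicate 1 was the highest of its group (log2 odds 2.83, SE 0.48, edgeR adjusted p = 0.00472; 0.0803 without S34F replicate 3). A 189 nt exon at chr10:75482147-75482335 (minus strand) went from 37.6%, 9.80% and 27.1% to 64.0%, 58.5% and 55.0% (log2 odds 2.07, SE 0.49, edgeR adjusted p = 0.0225). An 85 nt exon at chr7:99216671-99216755 (plus strand) went from 49.3%, 13.2% and 21.9% to 69.8%, 55.8% and 57.6% (log2 odds 1.97, SE 0.57, edgeR adjusted p = 0.0493). Wild-type replicate 1 again lay highest of its group in both, and the gap to the lowest S34F library was 17.4 percentage points in the chromosome 10 exon and 6.50 in the chromosome 7 exon. Their edgeR adjusted p-values were 0.081 and 0.111 without S34F replicate 2, and 0.126 and 0.189 without S34F replicate 3. With DESeq2 the adjusted p-values were 0.0972 and 0.178. Of 19 alternatives, the chromosome 4 exon stayed called in 17, the chromosome 10 exon in 13 and the chromosome 7 exon in 6. In the same order, these exons rested on 48 to 121, 32.5 to 100 and 21.5 to 59 reads per library. Shares just over 50% are not set apart from 50% at such depths.

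**Figure D4:**
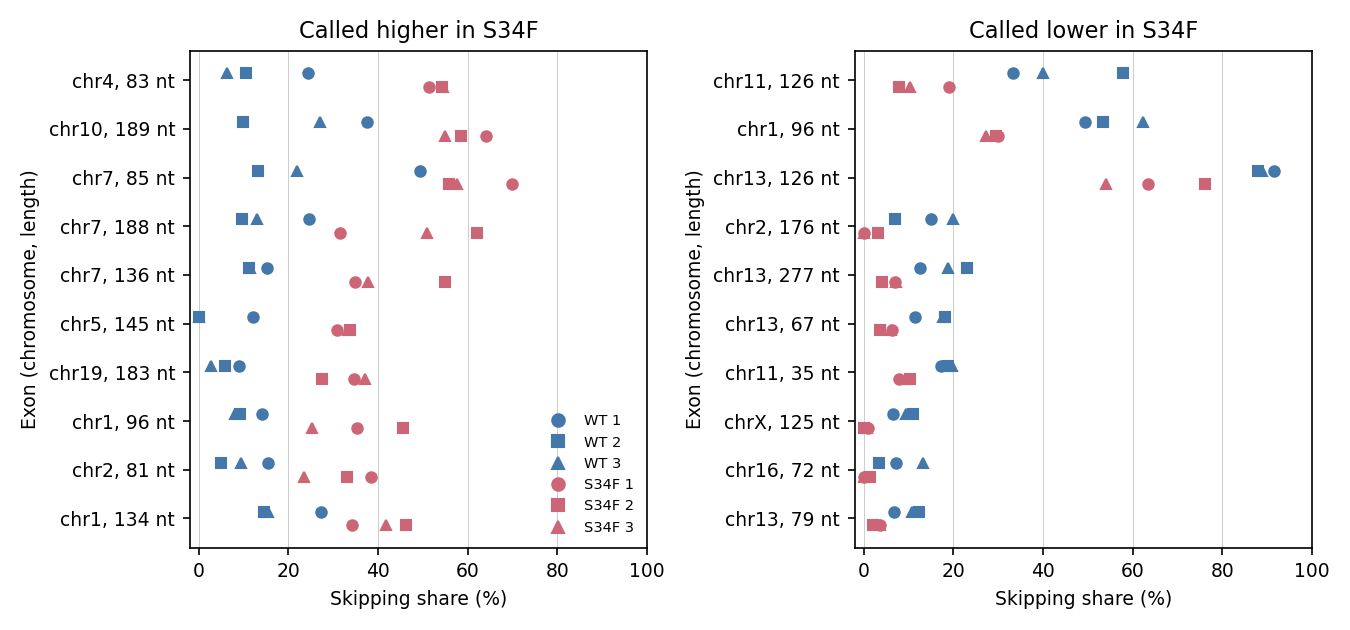
Skipping share (percent) in each library for the 10 called rises (left) and 10 called falls (right) with the largest difference between group means and no overlap, labelled by chromosome and exon length; blue is wild type, red S34F, and the marker gives the replicate. In the rises wild-type replicate 1 (blue circles) is the wild-type library nearest to S34F in every exon; the chromosome 13 exons of 277, 67 and 79 nt share their skipping reads.

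In a second set of rises, skipping went from a minor form to a mean share of 31.7% or more in S34F. The lowest single S34F library of this set was at 23.5%. A 183 nt exon at chr19:34710296-34710478 (plus strand) had 8.99%, 5.93% and 2.78% in wild type against 34.6%, 27.6% and 37.0% in S34F. With 130.5 to 400 reads per library it was the deepest of the 10, and its adjusted p was the third lowest of all members (log2 odds 3.00, SE 0.43, edgeR adjusted p = 0.00241; 0.0505 without S34F replicate 3). A 136 nt exon at chr7:26230613-26230748 (minus strand) had 15.3%, 11.2% and 11.5% in wild type against 34.9%, 55.0% and 37.8% in S34F (log2 odds 2.33, SE 0.41, edgeR adjusted p = 0.00592). S34F replicate 2 was far above the other S34F libraries here, and the gap between the lowest of the 3 and the highest wild-type value was 19.6 percentage points. A 145 nt exon at chr5:162871343-162871487 (plus strand) had 5 skipping reads (12.2%) in wild-type replicate 1 and none in wild-type replicates 2 and 3, against 30.8%, 33.8% and 33.3% in S34F (edgeR adjusted p = 0.0217). The other 4 were chr7:158444985-158445172 (188 nt), chr1:156908210-156908305 (96 nt), chr2:27535861-27535941 (81 nt) and chr1:247007097-247007230 (134 nt), all on the minus strand. Their wild-type means lay from 9.93% to 19.1% and their S34F means from 31.7% to 48.2%, with edgeR adjusted p-values from 0.0156 to 0.0363. With the lower of the inclusion junctions in place of their mean, 4 of these 7 were no longer called. The log2 odds and edgeR adjusted p were then 0.78 and 0.583 for the chromosome 2 exon, 0.86 and 0.541 for the 134 nt chromosome 1 exon, 1.69 and 0.111 for the 188 nt chromosome 7 exon, and 2.01 and 0.209 for the chromosome 5 exon. Of these 7, all but the chromosome 19 exon and the 136 nt chromosome 7 exon missed the threshold without S34F replicate 2, and without S34F replicate 3 all missed it.

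Most called rises were smaller in absolute terms. The median difference over the 288 was 5.14 percentage points, from a median wild-type mean of 0.536% to a median S34F mean of 5.68%, and S34F reached 20% or more in 32 and 50% or more in 3. By library, the median share of the 288 was 0.773%, 0.226% and 0.122% in wild-type replicates 1, 2 and 3 and 4.57%, 5.43% and 6.43% in the S34F replicates. Wild-type replicate 1 was alone the highest wild-type library in 153 of the 288, and in 2590 of all 5582 members; replicates 2 and 3 were so in 1301 and 1590 members. These medians are of members chosen by their test and only describe their size.

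In 52 called rises no wild-type library had a skipping read. These members met the minimum of 10 pooled reads through S34F alone, so that a difference was set by the choice of members, and their values are a description. The 2 with the highest S34F share, pooled over its libraries, are forms of a minus-strand exon, chr10:64975313-64975377 (65 nt) and chr10:64975313-64975456 (144 nt), which share the same skipping reads. The S34F replicates had 12, 4 and 2 skipping reads, giving 28.9%, 17.8% and 4.40% for the 65 nt form. A count of 0 in 81.5 wild-type reads allows a share of up to 3.68% (3 reads over the group, counting error only). The pooled S34F share was 16.4%, whose own counting error was not included. The S34F libraries differed widely among themselves, and the deepest, replicate 3, was the lowest, not far above the wild-type limit. The pooled share was 13.4% for the 144 nt form and 13.3% for the next exon, of 255 nt at chr4:89526946-89527200 (plus strand), which had 7.27%, 25.5% and 10.8% in the S34F libraries. A 97 nt exon at chr5:74886169-74886265 (plus strand) had 6.56%, 17.5% and 14% in S34F, with a pooled share of 12.8%. Wild type had 0 of 93 reads, which allows up to 3.23%.

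Falls in skipping were called in 31 members, with a median wild-type mean of 5.33% and a median S34F mean of 0.570%, and in 30 of them the groups did not overlap. A 126 nt exon at chr11:17312787-17312912 (plus strand) was skipped in 33.3%, 58.0% and 40% of wild-type reads and 19%, 8.0% and 10.4% of S34F reads (log2 odds -2.42, SE 0.58, edgeR adjusted p = 0.0251). The groups did not overlap, but only 20 to 38.5 reads per library stood behind these values. A 96 nt exon at chr1:234536599-234536694 (minus strand) went from 49.4%, 53.3% and 62.3% to 30%, 29.6% and 27.3% (log2 odds -1.55, SE 0.42, edgeR adjusted p = 0.0398). Here the S34F libraries agreed closely. Another 126 nt exon, at chr13:103320108-103320233 (plus strand), was almost always skipped in wild type, at 91.5%, 88.1% and 88.9%, and less so in S34F, at 63.5%, 76.2% and 54.0% (log2 odds -2.26, SE 0.56, edgeR adjusted p = 0.0281).

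The deepest of the 10 largest falls was a 35 nt exon at chr11:5368106-5368140 (minus strand), which lies downstream of an intron of 158658 nt. It was skipped in 17.3%, 18.8% and 19.6% of wild-type reads and 7.80%, 10.4% and 9.87% of S34F reads, over 418 to 2118.5 reads per library (log2 odds -1.15, SE 0.31, edgeR adjusted p = 0.0393). The spread within each group (SD 1.19 and 1.36 percentage points) was small beside the difference, but the exon stayed called in only 7 of 20 alternatives. A 125 nt exon at chrX:24763535-24763659 (plus strand) went from 6.50%, 11% and 9.52% to 0.99%, 0% and 0.709% (log2 odds -3.68, SE 0.77, edgeR adjusted p = 0.0141). It had 4, 10 and 6 skipping reads in wild type and 1, 0 and 1 in S34F. In chr13:114291935-114292211 (plus strand) 3 overlapping exon forms of 277, 67 and 79 nt fell together; they share 1 skipping junction with 17, 55 and 32 reads in wild type and 11, 4 and 35 in S34F, and so are 1 observation. The 277 nt form went from 12.7%, 23.2% and 18.9% to 7.07%, 4.19% and 7.24% (edgeR adjusted p = 0.0281). The last 2 were chr2:71351498-71351673 (176 nt) and chr16:81015411-81015482 (72 nt), both on the minus strand, with wild-type means of 14% and 7.88% and S34F means of 1.09% and 0.494% (edgeR adjusted p-values of 0.0405 and 0.0332). None of the 10 falls passed without S34F replicate 3, without S34F replicate 2 or with DESeq2, and 7 of them missed the threshold with the lower inclusion junction. Of 19 or 20 alternatives, the falls stayed called in 7 to 14.

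The called members were described further by their introns, length and position. Exons whose skipping rose lay between shorter introns: the median upstream intron was 1055.5 nt and the median downstream intron 854.5 nt, against 1662 and 1526 nt for the 5263 members not called and 2088 and 2768 nt for the 31 falls. The quartiles overlapped widely, at 405.25 and 2846.75 nt upstream for rises and 473 and 4338.5 nt for members not called. The read minimum moved with intron length. The 1736 members that reached 10 skipping reads in S34F alone, which hold 194 of the rises, had median introns of 1214 and 1170.5 nt, and the 462 that did so in wild type alone, which hold 16 of the falls, 2390.5 and 2669.5 nt. Within the members with 10 skipping reads in each group, the median introns were 1179 and 616.5 nt for the 94 rises and 1767 and 1553.5 nt for the 1696 not called. Within those that reached 10 in S34F alone they were 1047.5 and 1021 nt for the rises and 1226 and 1202 nt for the 1542 not called. A length that is a multiple of 3 was found in 133 of the 288 rises (46.2%), 14 of the 31 falls (45.2%) and 38.8% of the members not called. By exon length, there were 23 rises and 5 falls at 31 to 60 nt, 67 and 8 at 61 to 100 nt, 101 and 12 at 101 to 150 nt, 74 and 2 at 151 to 250 nt, and 23 and 4 at 251 to 500 nt, out of 409, 1473, 1866, 1407 and 427 members. The shares called were 6.85%, 5.09%, 6.06%, 5.40% and 6.32%, all near the 5.76% of all combinations tested. That background was not split by length or chromosome. Called members lay on all 23 chromosomes with members, with the most on chromosome 1 (45 rises and 7 falls of 828, 6.28%). On chromosome 13 there was 1 rise and 4 falls of 95 members (5.26%), 3 of the falls being the exon forms that share a junction. In 26 of the groups linked by shared junctions more than 1 member was called, 55 members in all. In none of the 26 did members go in both directions, but linked members share junction reads and are not separate observations. These are descriptions of members chosen by their test, and the differences between the sets were not tested.

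**Figure D5:**
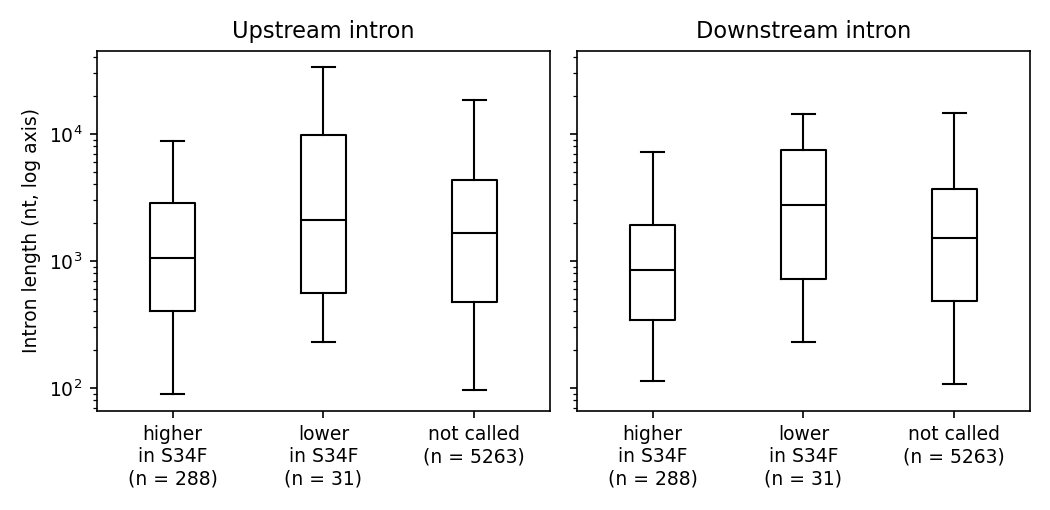
Length (nt, log axis) of the introns upstream and downstream of members called higher in S34F, called lower and not called; boxes give quartiles and median, whiskers the 5th and 95th percentiles of each set. Median introns are 1055.5 and 854.5 nt for rises, 2088 and 2768 nt for falls, and 1662 and 1526 nt for members not called, with boxes that overlap.

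The directions were also counted at like levels of skipping, where the difference between the classes was not tested. Among exons with a mean share from 1% to under 5%, 131 rises and 13 falls were called in 2873 members, and 70 rises and 11 falls in 1999 combinations with annotated skipping. From 5% to under 20% there were 85 rises (7.40%) and 7 falls (0.609%) in 1149 members. In 1964 annotated combinations there were 107 (5.45%) and 52 (2.65%). From 20% to under 50% there were 12 rises (11.7%) and 2 falls (1.94%) in 103 members. In 845 annotated combinations there were 58 (6.86%) and 31 (3.67%). In these ranges, in order, the S34F mean was the higher one in 60.6%, 63.8%, 67.4% and 61.2% of the members. For the annotated combinations this was 52.4%, 53.3%, 54.9% and 50.3%. Above 50% only 1 of 27 members was called (3.70%), a fall, against 65 rises (2.17%) and 87 falls (2.90%) in 3000 annotated combinations. Over all shares, annotated skipping gave 308 rises (3.70%) and 188 falls (2.26%) in 8327 combinations. The pooled read minimum applied to both classes, with a median of 20 skipping reads in the members and 113 in annotated skipping, and its part in this contrast was not tested.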

How the data were processed

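Junction reads were analysed in 6 poly(A)+ libraries (TruSeq, HiSeq2000, paired-end, per the labels' protocols). The deposited tables have 9 columns in STAR's junction layout and hold raw counts of unique and multi-mapped reads per junction, with no normalization. STAR and hg19 are named in the submitters' processing notes; version, annotation and junction filters are not given in the sources used here. The deposited largest overhang (nt) was used as a filter in an alternative only.

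Tables were joined on position, and a missing junction was counted as 0. Mean inclusion was rounded to whole reads for testing. edgeR 4.0.16 (R 4.3.3; quasi-likelihood F-test, legacy, robust) was fitted to 2 counts per library and combination, with terms for library, count type and count type by S34F, so library size cancels. SE is the absolute log2 odds divided by the square root of F. Fits without a library kept the same combinations. DESeq2 1.42.0 and limma 3.58.1 (pseudocount 0.5) were alternatives. The procedure was tested on simulated counts, drawn from 1 common share per combination for all libraries of a group. A library that stands apart from its group, as wild-type replicate 1 did, was not simulated. Joins used pandas 2.3.3 under Python 3.11.15. Reads carry no molecular identifiers, so limits from counts cover counting error only.

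Members and lists were chosen with earlier results of these data known. Members named are the 10 largest called rises and falls with groups that did not overlap, the 8 highest mean shares, the largest ranges within a group and the edges of each threshold, each exon once per list; others were named after their values were seen. Gene lists drawn up for splicing factors, nonsense-mediated decay, reported U2AF1 targets, DNA repair and erythroid genes were not used, since genes were not assigned.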

Additional observations from a re-analysis of the deposited data

How the results depend on the processing

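The count of 319 called members stayed within 1.5 times under 20 reads on average (351), 50 reads in every library (260), an overhang minimum (314), the lower, upstream or downstream inclusion junction (322, 289 and 270), the newer dispersion estimate (280) and exons of 31 to 500 nt only (318). Under these settings 4.84% to 6.38% of the members were called, and 4.54% to 6.60% of all combinations. The lower inclusion junction (5.77% of members, 4.64% of all combinations) ended the call of 11 of the same 22 called members. DESeq2 gave 37 (0.663% against 0.726% of all combinations), and limma on log2 odds gave 0 in the members and in all combinations (1374 members at an unadjusted p under 0.05). It was 187 when low counts were kept (0.441% of members, 0.466% of all 240353 combinations), 199 with multi-mapped reads added (3.27% against 3.08%), and 79 with a minimum difference of 10 percentage points (1.42% against 2.72%). Of the 187, 147 were among the 319, and of the 199, 189. Over the members with 10 skipping reads in each group, an alternative chosen after seeing the data, it was 109 (6.04%, against 5.91% of all combinations so chosen). Leaving out 1 library gave from 2 to 773. For these counts the cause was not tested. With the replicate number as a block 110 members were called (1.97% against 1.90%), 100 of them among the 319. The labels give same-numbered libraries no link besides the number. Their deviations correlated at -0.08, -0.02 and -0.06, and those of differently numbered libraries at -0.03 to 0.09. Whether same-numbered libraries shared a culture or batch was not tested.

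The difference in the summed share, 0.283 percentage points, kept its direction in all alternatives run: 0.293 with multi-mapped reads, 0.391 with the lower inclusion junction, 0.391 with 10 skipping reads in each group, and 0.203 to 0.343 without 1 library. These differences stand on unlike levels. Wild type and S34F had 0.827% and 1.11% in the main setting and 1.12% and 1.51% with the lower inclusion junction. With 10 skipping reads in each group they had 1.26% and 1.65%. The same 22 called members kept their direction in all 429 combinations of member and setting that gave a value, and stayed called in 258. All 22 were called with groups that did not overlap, so that a kept direction was largely set by their choice. Depth limits low shares: the median member had 94 reads in its lowest library.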

Other observations

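Some members differed more between libraries of 1 genotype than between the genotypes. In a 223 nt exon at chr1:8419824-8420046 (minus strand) wild-type replicate 1 had 28 skipping reads (43.8%), while wild-type replicates 2 and 3 had none. The S34F libraries had 25%, 45.6% and 39.5%, so that wild-type replicate 1 lay among them. A 252 nt exon at chr1:200619553-200619804 (minus strand) had 50%, 11.5% and 5.71% in wild type against 41.4%, 76.9% and 49.4% in S34F; it had the largest range in both genotypes, 44.3 and 35.5 percentage points. In a 95 nt exon at chr1:78413138-78413232 (minus strand) wild-type replicate 3 was the odd one, at 42.9% against 84.5% and 81.3% in replicates 1 and 2 and 85.2% to 94.7% in S34F. None of these 3 was called over all 6 libraries (edgeR adjusted p of 0.37, 0.102 and 0.137), but all 3 were without wild-type replicate 1 (0.000492, 0.000966 and 0.0294). The log2 odds then went from 1.23 to 7.25, from 2.05 to 3.59 and from 1.54 to 2.00; the first is set against wild-type libraries at 0 and is no bound.

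In S34F the other large ranges came from replicate 2. A 166 nt exon at chr1:46494440-46494605 (plus strand) had 10.6%, 44.1% and 12.9%, and a 174 nt exon at chr6:99979239-99979412 (plus strand) had 20.8%, 48.3% and 15.1%. Wild type lay at 18.9%, 10.5% and 2.63% in the first and at 45.7%, 28.0% and 34.6% in the second, overlapping S34F in both. These values rest on 24 to 93 reads per library.

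Multi-mapped reads made up 1.99% ± 0.11 of the reads on the skipping junctions of the members in wild type against 1.83% ± 0.066 in S34F (SD, n = 3 each), with wild type from 1.87% to 2.10% and S34F from 1.76% to 1.89%.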
